A study of Homo sapiens with 8 samples.

Results

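The genes described here are 10 components of the NOTCH signalling pathway: the receptors NOTCH1, NOTCH2 and NOTCH3, the ligands JAG1, JAG2 and DLL1, the target genes HES1, HEY1 and NRARP, and the coactivator MAML2. They were taken by symbol from a count table of 20294 genes. All 10 were abundant enough to be tested among 13124 genes. The samples were RNA-seq libraries of HSC-5, a human cutaneous squamous cell carcinoma cell line. Every group carried Cas9, delivered stably by lentivirus, and was grown in DMEM with 10% FBS. The control group held the empty vector (2 libraries), and the other groups held a guide RNA against EZH2, sgEZH2-1 (3 libraries) or sgEZH2-2 (3 libraries). Carriers of the guide were selected with G418, and RNA was taken directly afterwards. The labels do not say whether the edited cells were clones or mixed populations, nor whether the replicate libraries of a group began as different cultures. The p-values therefore measure only how far these samples spread, and that spread may be technical. Per the series' design text, the authors left out a further control that clustered apart. The spread of the controls, on which the p-values against Control rest, may thus be understated. EZH2 is the enzyme of Polycomb repressive complex 2, which methylates lysine 27 of histone H3 at silenced genes.

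NOTCH receptors are cut when they bind a JAG or DLL ligand on a neighbouring cell. The freed intracellular domain enters the nucleus, joins the DNA-binding protein RBPJ and a MAML coactivator, and switches on targets such as the HES and HEY repressors. In the epidermis the pathway is known for promoting the exit of keratinocytes from the basal layer into differentiation, and NOTCH receptor genes are often mutated in cutaneous squamous cell carcinoma.

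Promoter sequences are shown for the ligand that fell with both guides (JAG1), for the target that rose with sgEZH2-2 (HES1) and for a target that fell with sgEZH2-1 (NRARP). Each runs 5′ to 3′ on the strand of its gene, from 250 bases before to 50 bases after the start of the gene, as given by RefSeq for GRCh38.p14. The JAG1 window is chr20:10673950-10674249 on the minus strand, the HES1 window chr3:194135898-194136197 on the plus strand and the NRARP window chr9:137302222-137302521 on the minus strand. Capitals mark the core motif of RBPJ, searched as GTGGGAA and, on the other strand, as TTCCCAC.
JAG1: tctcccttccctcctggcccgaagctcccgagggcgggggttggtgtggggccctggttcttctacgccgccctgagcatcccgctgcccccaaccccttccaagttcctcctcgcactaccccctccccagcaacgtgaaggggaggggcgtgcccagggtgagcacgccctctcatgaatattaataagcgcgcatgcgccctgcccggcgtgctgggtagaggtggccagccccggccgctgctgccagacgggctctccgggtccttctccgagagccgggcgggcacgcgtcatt
HES1: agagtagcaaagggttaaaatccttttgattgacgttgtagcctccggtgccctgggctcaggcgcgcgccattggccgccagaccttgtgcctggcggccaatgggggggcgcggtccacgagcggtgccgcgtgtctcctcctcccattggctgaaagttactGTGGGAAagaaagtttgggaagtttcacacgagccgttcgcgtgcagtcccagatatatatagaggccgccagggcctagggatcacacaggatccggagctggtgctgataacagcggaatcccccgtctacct
NRARP: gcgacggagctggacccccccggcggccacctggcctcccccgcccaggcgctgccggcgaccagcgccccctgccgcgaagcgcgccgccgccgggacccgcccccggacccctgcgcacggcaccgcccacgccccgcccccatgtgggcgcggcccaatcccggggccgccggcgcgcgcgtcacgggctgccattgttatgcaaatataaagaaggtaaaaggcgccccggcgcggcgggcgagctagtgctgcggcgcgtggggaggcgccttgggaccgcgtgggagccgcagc
Among the 8 members with an entry in the promoter table, HES1 alone held the motif, with 1 match on the plus strand that began at position -85 from the start. Of 35116 promoters of the same length, 2194 held it (6.25%), so 1 of 8 is a description of these windows and not a set of binding sites. In the other 7 windows these exact letters were not found. The 8 windows were rich in G and C, from 59% in HES1 to 79.7% in JAG2.

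Each library held between 12.6 M and 15.5 M counts. Levels are given in CPM, the edgeR unit in which counts are set against a scaled library total of 1 M. Log2 fold changes and adjusted p-values come from the quasi-likelihood test of edgeR over all 13124 genes, and a gene was called at an adjusted p of at most 0.05. The EZH2 transcript ranged from 82.7 to 84.1 CPM in Control, from 48.0 to 56.4 CPM in sgEZH2-1 and from 65.1 to 73.9 CPM in sgEZH2-2. It fell with sgEZH2-1 (log2 fold change -0.64, adjusted p = 0.000529), while with sgEZH2-2 its log2 fold change was -0.28 (adjusted p = 0.0699). The means were 64.2% and 82.5% of that in Control. These RNA levels do not show how much EZH2 protein or histone methylation remained, which the libraries do not measure. All 13 keratinocyte markers searched were abundant enough to test, led by KRT5 at 1800 CPM. Of markers of other cell types, COL1A2, KDR, TIE1, CD3E, LST1, TYR, DCT, CNN1 and DES had 0 counts in every library. Others were present: the highest of each list, as means over the libraries, were CDH5 (endothelial, 129 CPM), MITF (melanocyte, 27.1), CD68 (leukocyte, 12.2), COL1A1 (fibroblast, 8.64) and ACTA2 (smooth muscle and pericyte, 2.71). Since the RNA came from bulk cells, fewer cells that express a gene and less RNA of it per cell cannot be told apart.

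In the controls the members spanned a wide range of levels per kilobase of exon, a scale that allows for the length of genes. The length was the union of all exons of a gene, which can exceed that of the transcripts made. The order of the members is therefore approximate. HES1 stood highest at 37.3 ± 5.28 CPM per kb (SD, n = 2), followed by JAG1 at 24.4 ± 0.0561 and NRARP at 20.6 ± 0.223. The receptors lay lower: NOTCH3 was at 8.77 ± 0.616, NOTCH2 at 8.73 ± 0.192 and NOTCH1 at 6.69 ± 0.584 CPM per kb. DLL1 was at 7.69 ± 0.673, JAG2 at 5.32 ± 1.05, MAML2 at 3.86 ± 0.315 and HEY1 lowest at 1.64 ± 0.139 CPM per kb. Neighbours whose means lay closer than the sum of their SDs were NOTCH3 and NOTCH2, DLL1 and NOTCH1, and NOTCH1 and JAG2. JAG1 was thus the most abundant transcript among the 3 ligands per kilobase, and HES1 among the 3 targets.

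With sgEZH2-1, the ligands JAG1 and JAG2 and the targets HEY1 and NRARP fell, so 4 of 10 members were called lower and 0 of 10 higher, where 9.51% of all genes tested were called lower and 11.3% higher. The median log2 fold change of the members was -0.20, beside -0.01 for all genes. With sgEZH2-2, NOTCH3 and HES1 rose and JAG1 fell: 2 of 10 members were called higher and 1 of 10 lower, against 6.18% and 2.5% of all genes. The median of the members was then 0.18, beside 0.00 for all genes. The comparisons of the guides with Control share the same 2 control libraries.

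**Figure D1:**
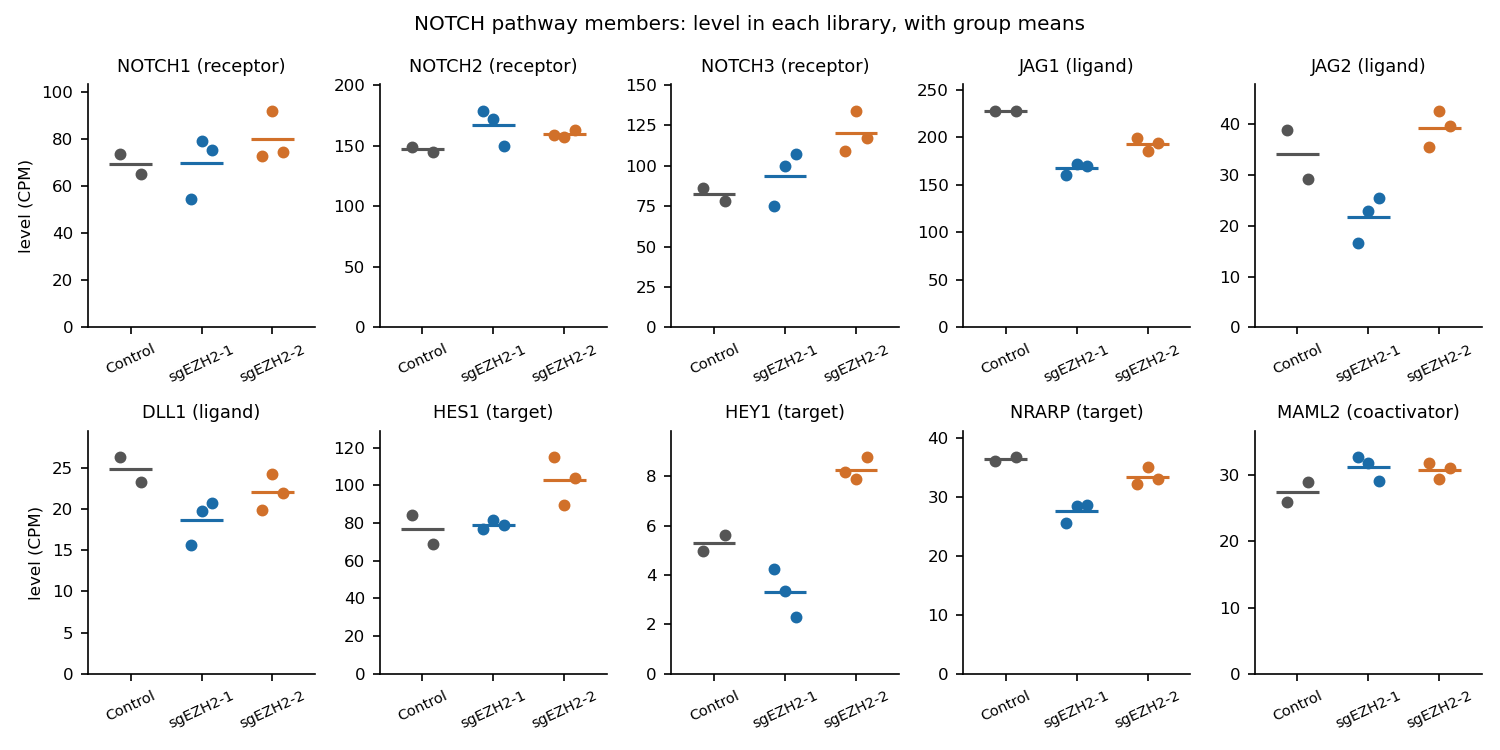
Level of each of the 10 members in every library, in CPM (vertical axes start at 0), for Control, sgEZH2-1 and sgEZH2-2; points are libraries and bars are group means. All 3 sgEZH2-1 libraries lie below both controls for JAG1, JAG2, DLL1, HEY1 and NRARP, and above both for NOTCH2 and MAML2. All 3 sgEZH2-2 libraries lie above both controls for NOTCH2, NOTCH3, HES1, HEY1 and MAML2, and below both for JAG1 and NRARP. The share of all genes with such a separation was not counted.

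JAG1 encodes Jagged-1, a transmembrane ligand of NOTCH receptors (chromosome 20, 10637684 to 10673999, minus strand, GRCh38). Its level was 227 and 228 CPM in the controls, 160, 172 and 170 CPM with sgEZH2-1, and 199, 185 and 194 CPM with sgEZH2-2. The 3 groups did not overlap: controls were highest, sgEZH2-2 in between and sgEZH2-1 lowest. JAG1 fell to 73.5% of control with sgEZH2-1, a log2 fold change of -0.44 ± 0.053 (SE, adjusted p = 0.000331), and to 84.8% with sgEZH2-2, a log2 fold change of -0.24 ± 0.053 (SE, adjusted p = 0.0222). JAG1 was the only member called with each guide. The sgEZH2-1 call held when any 1 of the 8 libraries was left out. The sgEZH2-2 call was lost without either control library (adjusted p = 0.0947 and 0.0921), without library 2 of sgEZH2-1 (0.0513) and without library 2 or 3 of sgEZH2-2 (0.107 and 0.0702), while the log2 fold change stayed between -0.24 and -0.20 in these fits.

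JAG2 encodes the second Jagged ligand (chromosome 14, 105140981 to 105168824, minus strand). It was at 38.8 and 29.3 CPM in the controls, 16.7, 22.9 and 25.5 CPM with sgEZH2-1, and 35.6, 42.7 and 39.7 CPM with sgEZH2-2. All sgEZH2-1 libraries were below both controls, whereas the sgEZH2-2 libraries overlapped the controls. JAG2 fell to 63.8% of control with sgEZH2-1 (log2 fold change -0.64 ± 0.169, SE; adjusted p = 0.0227) and was at 0.21 with sgEZH2-2 (95% interval -0.16 to 0.58, adjusted p = 0.506). The fall was not called without library 1 of Control, where the log2 fold change was -0.43 (adjusted p = 0.214). JAG2 shares 469 bases of exon on its own strand with the transcript AL512356.1, so its counts are uncertain to that extent.

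DLL1 encodes a Delta-like ligand, which in human epidermis marks clusters of basal cells (chromosome 6, 170282206 to 170306565, minus strand). Its level was 26.3 and 23.3 CPM in the controls, 15.6, 19.8 and 20.7 CPM with sgEZH2-1, and 19.9, 24.3 and 21.9 CPM with sgEZH2-2. The sgEZH2-1 libraries were below both controls, but the log2 fold change of -0.40 just missed the threshold (95% interval -0.69 to -0.12, adjusted p = 0.0505). It passed without library 3 of sgEZH2-1 (log2 fold change -0.47, adjusted p = 0.0448) and without library 1 of sgEZH2-2 (-0.39, adjusted p = 0.0487). With sgEZH2-2 the log2 fold change was -0.17 (95% interval -0.46 to 0.11, adjusted p = 0.484).

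NOTCH1 is the main receptor of differentiating keratinocytes (chromosome 9, 136494433 to 136545786, minus strand). It was at 73.7 and 65.1 CPM in the controls, 54.8, 79.3 and 75.4 CPM with sgEZH2-1, and 73.0, 92.2 and 74.5 CPM with sgEZH2-2. The groups overlapped in both comparisons. The log2 fold change was 0.01 with sgEZH2-1 (95% interval -0.33 to 0.35) and 0.20 with sgEZH2-2 (-0.13 to 0.54), with adjusted p of 0.971 and 0.484.

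NOTCH2, a receptor also made in the epidermis, lies on chromosome 1 (119911553 to 120069626, minus strand). Its level was 149 and 145 CPM in the controls, 179, 172 and 150 CPM with sgEZH2-1, and 159, 157 and 163 CPM with sgEZH2-2. Every guide library was above both controls, by a small margin. The log2 fold change was 0.19 with sgEZH2-1 (95% interval 0.03 to 0.35, adjusted p = 0.0957) and 0.12 with sgEZH2-2 (-0.04 to 0.28, adjusted p = 0.367), so neither passed. Without library 3 of sgEZH2-1 the first was 0.27 (adjusted p = 0.0119). NOTCH2 has near-identical partial copies, the NOTCH2NL genes, and how reads were split between them is not given in the sources used here.

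NOTCH3, a receptor known from vascular smooth muscle and also made in the epidermis, lies on chromosome 19 (15159038 to 15200981, minus strand). It was at 86.4 and 78.3 CPM in the controls, 74.8, 99.7 and 107 CPM with sgEZH2-1, and 109, 134 and 117 CPM with sgEZH2-2. The sgEZH2-2 libraries were above both controls and above all sgEZH2-1 libraries, while library 1 of sgEZH2-1 was the lowest of all 8. NOTCH3 rose with sgEZH2-2 to 120 ± 12.7 CPM from 82.3 ± 5.79 CPM (SD, n = 3 and 2), a log2 fold change of 0.54 ± 0.139 (SE, adjusted p = 0.0382). This call was lost without either control (adjusted p = 0.113 and 0.183) and without library 2 or 3 of sgEZH2-2 (0.103 and 0.095). With sgEZH2-1 the log2 fold change was 0.19 (95% interval -0.12 to 0.50, adjusted p = 0.363), and without library 1 of sgEZH2-1 it was 0.33 (adjusted p = 0.039). Summed smooth muscle and pericyte markers ranged from 3.20 to 3.27 CPM in Control, 2.26 to 3.09 with sgEZH2-1 and 3.66 to 4.96 with sgEZH2-2. Of these 5 markers, CNN1 and DES had 0 counts in all libraries and 1 was abundant enough to test. The part of these markers in the NOTCH3 result was not tested.

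HES1 encodes a basic helix-loop-helix repressor and is the classical direct target of the pathway, with the RBPJ core in the promoter printed above (chromosome 3, 194136145 to 194138732, plus strand). It was at 84.5 and 69.1 CPM in the controls, 76.6, 81.5 and 78.9 CPM with sgEZH2-1, and 115, 89.6 and 104 CPM with sgEZH2-2. The sgEZH2-1 libraries fell between the controls, and the sgEZH2-2 libraries were above all others. HES1 rose to 134% of control with sgEZH2-2 (log2 fold change 0.42 ± 0.109, SE; adjusted p = 0.0401) and was at 0.04 with sgEZH2-1 (95% interval -0.20 to 0.28, adjusted p = 0.825). The rise was not called without library 2 of Control (log2 fold change 0.28, adjusted p = 0.226), nor without library 2 of sgEZH2-1 (adjusted p = 0.0567) or library 1 or 3 of sgEZH2-2 (0.0837 and 0.114). A fit of Control and sgEZH2-2 alone gave 0.43 (adjusted p = 0.0575).

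HEY1 encodes a repressor related to the HES proteins and is likewise a target of activated receptors (chromosome 8, 79764010 to 79767863, minus strand). It was the least abundant member, with 33 to 118 counts per library. Its level was 4.97 and 5.61 CPM in the controls, 4.25, 3.35 and 2.31 CPM with sgEZH2-1, and 8.15, 7.87 and 8.77 CPM with sgEZH2-2. The groups did not overlap, and the guides lay on opposite sides of Control. HEY1 fell to 62.5% of control with sgEZH2-1 (log2 fold change -0.69 ± 0.217, SE; adjusted p = 0.0485) and was at 156% of control with sgEZH2-2 (log2 fold change 0.64, 95% interval 0.20 to 1.09, adjusted p = 0.0799). The sgEZH2-1 call held only when library 1 of sgEZH2-1 was left out. Leaving out any of the other 7 libraries (2 of Control, 2 of sgEZH2-1 and 3 of sgEZH2-2) gave an adjusted p between 0.0667 and 0.178. The call was also lost in DESeq2 (adjusted p = 0.0896), with library totals alone (0.0538) and in a fit of Control and sgEZH2-1 alone (0.109). The sgEZH2-2 value passed without library 1 or 3 of sgEZH2-1 (adjusted p = 0.0348 and 0.0344).

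NRARP encodes an ankyrin repeat protein that is induced by the pathway and restrains it by binding the RBPJ complex (chromosome 9, 137300482 to 137302251, minus strand). It was at 36.2 and 36.8 CPM in the controls, 25.6, 28.5 and 28.7 CPM with sgEZH2-1, and 32.2, 35.1 and 33.0 CPM with sgEZH2-2. As for JAG1, the controls were highest, sgEZH2-2 came next and sgEZH2-1 was lowest, with no overlap. NRARP fell with sgEZH2-1 (log2 fold change -0.40 ± 0.078, SE; adjusted p = 0.00519), a call kept when any 1 library was left out. With sgEZH2-2 the log2 fold change was -0.13 (95% interval -0.30 to 0.05, adjusted p = 0.382). Of the members, NRARP had the highest GC content of its longest transcript, 67.3%, and its fall was not called once a trend of level with GC content was removed (log2 fold change -0.28, adjusted p = 0.0986).

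MAML2 encodes a Mastermind-like coactivator that completes the complex on RBPJ (chromosome 11, 95976598 to 96343180, minus strand). It was at 25.9 and 29.0 CPM in the controls, 32.7, 31.8 and 29.1 CPM with sgEZH2-1, and 31.8, 29.4 and 31.1 CPM with sgEZH2-2. Every guide library was above both controls, in the case of the lowest by little. The log2 fold changes were 0.18 with sgEZH2-1 (95% interval -0.01 to 0.37, adjusted p = 0.159) and 0.17 with sgEZH2-2 (-0.02 to 0.36, adjusted p = 0.290), so neither passed. MAML2 exons overlap 549 bases of the opposite-strand transcript AP000779.1, and the strand setting of the counting is not given in the sources used here.

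**Figure D2:**
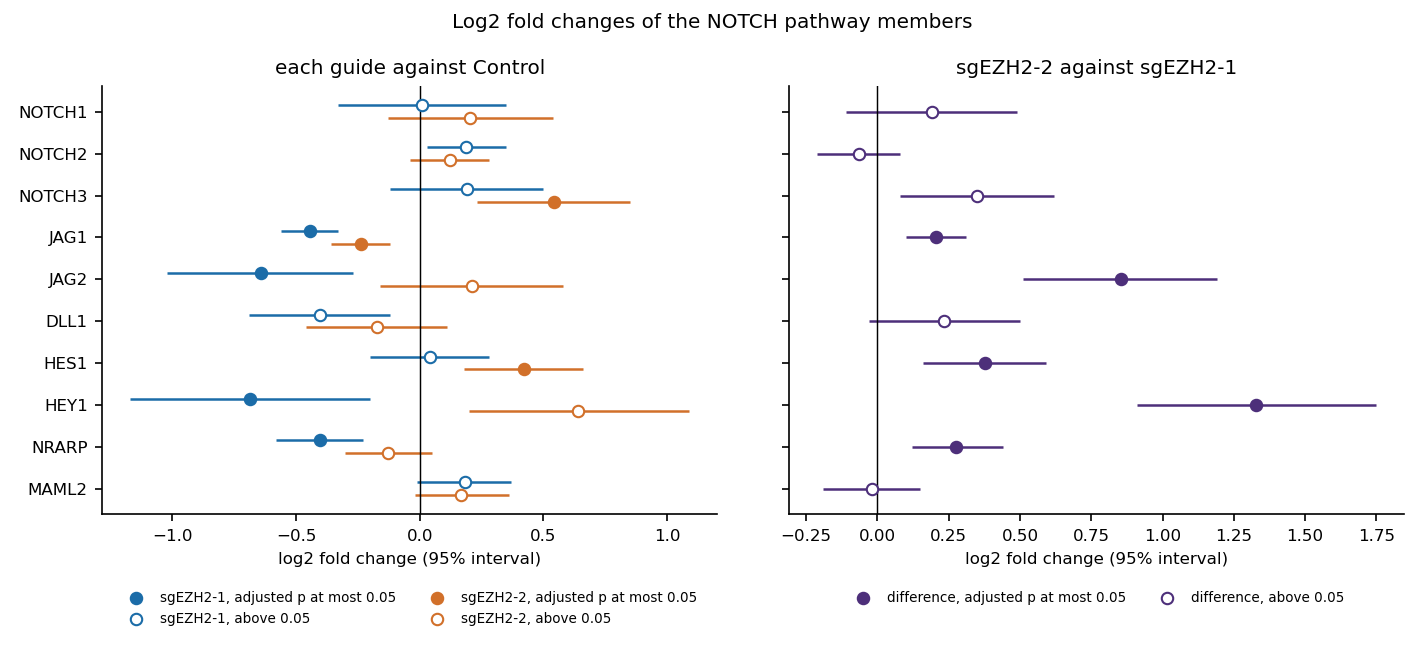
Log2 fold change of each member with its 95% interval, against Control for each guide (left) and of sgEZH2-2 against sgEZH2-1 (right); filled points have an adjusted p of at most 0.05. JAG1 is filled for both guides, HEY1 lies at -0.69 and 0.64 with the 2 guides, and the difference between guides is filled for 5 members, all above 0.

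The guides were then compared with each other, a contrast in which the level in Control does not enter. The control libraries still entered the estimate of spread, which was shared over the 3 groups. JAG1, JAG2, HES1, HEY1 and NRARP were higher with sgEZH2-2 than with sgEZH2-1, 5 of 10 members, and 0 of 10 were lower, where 11.5% of all genes were called higher and 10.4% lower. The widest gap was in HEY1, at 8.26 ± 0.464 CPM with sgEZH2-2 and 3.30 ± 0.970 CPM with sgEZH2-1 (SD, n = 3 each), which is 2.51-fold (log2 difference 1.33 ± 0.190, SE; adjusted p = 0.00113). JAG2 stood at 39.3 ± 3.60 and 21.7 ± 4.53 CPM, a 1.81-fold difference (log2 difference 0.85 ± 0.152, SE; adjusted p = 0.00374). These calls for the HEY1 repressor and the JAG2 ligand both held when any 1 library was left out. The other 3 calls were smaller: the log2 difference was 0.38 for HES1 (adjusted p = 0.0201), 0.28 for NRARP (adjusted p = 0.0211) and 0.21 for JAG1 (adjusted p = 0.0139). JAG1 was not called without library 3 of sgEZH2-2 (adjusted p = 0.0578), and HES1 not without library 1 or 3 of sgEZH2-2 (0.0525 and 0.0699). NRARP was not called without library 1 or 2 of sgEZH2-1 (0.0591 and 0.0509) or library 2 or 3 of sgEZH2-2 (0.0842 and 0.0623). The other 5 members did not pass. Among the receptors, NOTCH3 was at 0.35 (adjusted p = 0.0648), NOTCH1 at 0.19 (0.332) and NOTCH2 at -0.065 (0.492). The ligand DLL1 was at 0.23 (0.183) and the coactivator MAML2 at -0.02 (95% interval -0.19 to 0.15). NOTCH3 passed without library 3 of sgEZH2-1 (adjusted p = 0.0329) or library 1 of sgEZH2-2 (adjusted p = 0.0446). It was also called in DESeq2 and once the GC trend was removed.

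With both guides taken as 1 group of 6 libraries, edgeR called 0 of 10 members in either direction, and 2 of 10 had an unadjusted p under 0.05. In this fit, where a difference between guides counts as spread, 3.76% of all genes were called higher and 0.594% lower. The share of all genes with an unadjusted p under 0.05 was not counted, here or for the wider list below. JAG1 came closest (log2 fold change -0.34, adjusted p = 0.0544), with all 6 guide libraries below both controls. DESeq2 called 1 member, JAG1, at an adjusted p of 0.0134. Leaving out library 1 of sgEZH2-2 also brought JAG1 past the threshold (log2 fold change -0.36, adjusted p = 0.0455). When the mean of both guides was tested in the fit of 3 groups, where the guides keep separate means, JAG1 (adjusted p = 0.00115) and NRARP (log2 fold change -0.26, adjusted p = 0.0318) were called lower. HEY1, whose guides lay on opposite sides, averaged 0.12 (adjusted p = 0.933).

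Within sgEZH2-1, library 1 stood apart for the GC-rich members. Library 1 of this guide was lower than the mean of the other 2 libraries for NOTCH1 (log2 deviation -0.50), JAG2 (-0.54), NOTCH3 (-0.47) and DLL1 (-0.38), and less so for NRARP (-0.16). The transcripts of these 5 members hold 58.3% to 67.3% GC. In the same library HEY1, at 47.3% GC, deviated by 0.61, and JAG1 by -0.10. Over the 1881 genes tested with at least 60% GC, the median deviation of this library was -0.338, beside 0.0948 and 0.253 in libraries 2 and 3. Without library 1, the comparison of sgEZH2-1 with Control called 4 members lower (JAG1, JAG2, HEY1 and NRARP) and 1 higher (NOTCH3), beside 1154 lower and 1374 higher among the 13124 genes tested. The comparison of the guides without it called 4 members higher and 0 lower, beside 1334 higher and 1145 lower among all genes. The controls also differed from each other, by median deviations of GC-rich genes of 0.198 and -0.198. The median log2 fold change of these GC-rich genes was -0.10 with sgEZH2-1, 0.12 with sgEZH2-2 and 0.22 for sgEZH2-2 against sgEZH2-1.

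A GC trend was therefore removed from each library in a fit added after the data had been seen. JAG1, JAG2 and HEY1 were still called lower with sgEZH2-1, at log2 fold changes of -0.41, -0.53 and -0.67, and DLL1 was called lower too (-0.31, adjusted p = 0.0144). NOTCH3, with 0.30 (adjusted p = 0.00137), and NOTCH2, with 0.22 (adjusted p = 0.0108), were called higher with sgEZH2-1 in this fit. Calls rose among all genes as well, to 2176 higher and 1655 lower with sgEZH2-1, from 1478 and 1248 before. With sgEZH2-2, NOTCH3 (0.43), HES1 (0.46) and HEY1 (0.68) were called higher and JAG1 (-0.20) lower, beside 1251 higher and 720 lower among all genes. Between the guides, HEY1 remained at 1.35 and JAG2 at 0.62, whereas NRARP went from 0.28 to -0.04 (adjusted p = 0.836). NOTCH3 was called higher between the guides in this fit, where 1908 of all genes were called higher and 2142 lower.

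**Figure D3:**
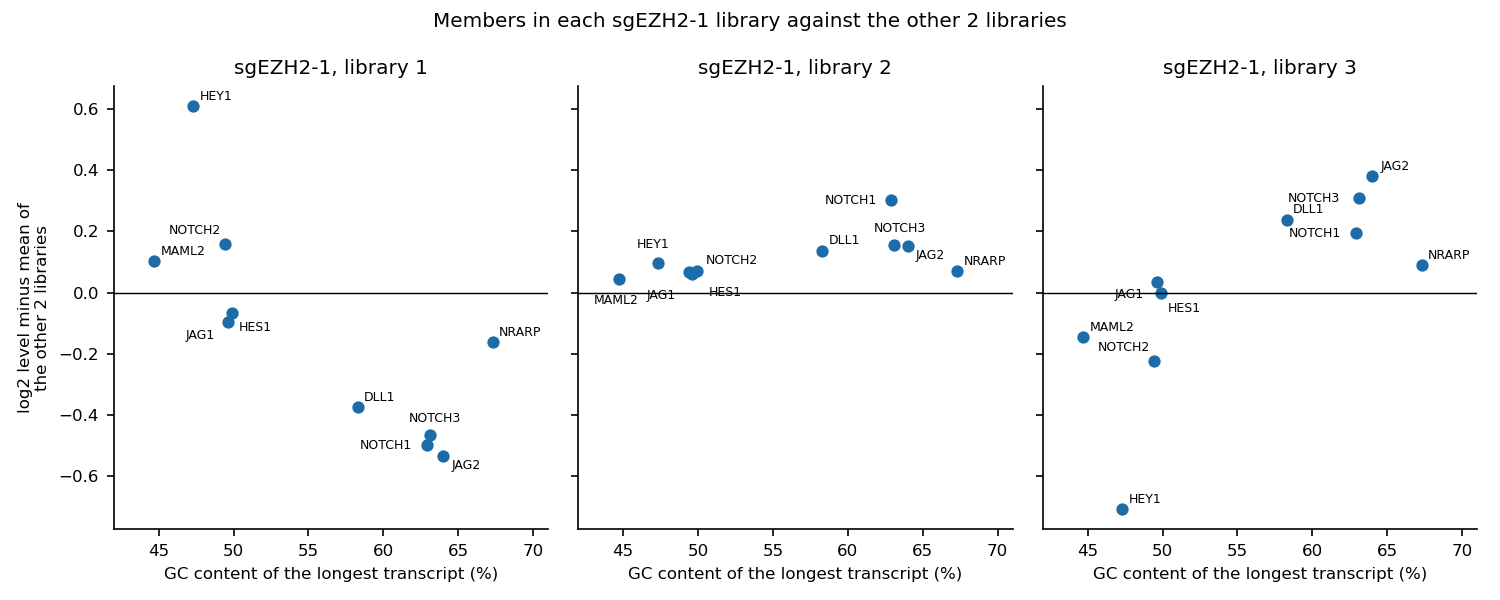
For each sgEZH2-1 library, the log2 level of each member minus the mean of the other 2 libraries of that guide (vertical axis), against the GC content of the longest transcript in percent (horizontal axis). In library 1 the GC-rich NOTCH1, NOTCH3, JAG2 and DLL1 lie at -0.54 to -0.38 and HEY1 at 0.61; the members with under 50% GC other than HEY1 lie closer to 0.

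The rest of the pathway was described from a list of 51 other genes, of which 41 were tested. With sgEZH2-1, 5 rose and 3 fell; with sgEZH2-2, 4 rose and 0 fell; with both guides as 1 group, 2 rose and 0 fell. The medians of their log2 fold changes were -0.02, 0.05 and 0.04. Between the guides 3 were higher and 3 lower with sgEZH2-2, with a median of 0.06. The shares of all genes called in each comparison are given above. Nothing particular to the list is read from these counts, nor to any of its roles from the counts by role below.

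Among further ligands, 1 of 4 was tested. This was DLK2, a Delta-like homologue regarded as an atypical, non-canonical ligand. It was at 18.9 and 13.8 CPM in the controls, 6.33, 7.59 and 8.96 CPM with sgEZH2-1, and 14.6, 19.3 and 18.8 CPM with sgEZH2-2. The sgEZH2-1 libraries lay below all others, and the controls overlapped sgEZH2-2. DLK2 fell with sgEZH2-1 (log2 fold change -1.09 ± 0.187, SE; adjusted p = 0.00257) and was at 0.11 with sgEZH2-2 (adjusted p = 0.783). The log2 difference between the guides was 1.19 (adjusted p = 0.00113). The receptor NOTCH4 and the ligands DLL3, DLL4 and DLK1 had too few counts to test.

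The 9 genes that handle ligands and receptors were all tested. Of these, 3 rose with sgEZH2-1 and 2 with sgEZH2-2, where 11.3% and 6.18% of all genes tested were called higher. NEURL1B, a ubiquitin ligase of the Neuralized family that acts on ligands, rose with both guides. Its level was 17.0 and 17.9 CPM in the controls, 30.4, 28.0 and 29.8 CPM with sgEZH2-1, and 28.9, 33.7 and 31.1 CPM with sgEZH2-2. All 6 guide libraries were above both controls and the guides overlapped each other. NEURL1B had log2 fold changes of 0.75 with sgEZH2-1 (adjusted p = 0.000323), 0.84 with sgEZH2-2 (adjusted p = 0.000345) and 0.80 with both guides as 1 group (adjusted p = 0.0011). The NEURL1B calls with sgEZH2-1, sgEZH2-2 and both guides held when any 1 library was left out.

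Its relative NEURL1 was at low levels, 0.355 and 0.391 CPM in the controls and 1.00, 1.23 and 1.47 CPM with sgEZH2-1, against 0.207, 0.393 and 0.534 CPM with sgEZH2-2. NEURL1 rose with sgEZH2-1 alone among the 2 guides (log2 fold change 1.71, adjusted p = 0.0174), and the difference between the guides was itself called (log2 difference -1.71, adjusted p = 0.0105). Its counts were 5 and 6 in the controls, 13, 18 and 21 with sgEZH2-1, and 3, 5 and 7 with sgEZH2-2. NEURL1 was therefore abundant enough to test only through the sgEZH2-1 libraries. Either call could only have sgEZH2-1 as the higher group, and the direction lends no support. The sgEZH2-1 call was lost without either control (adjusted p = 0.104 and 0.066), without library 3 of sgEZH2-1 (0.0502) and in DESeq2 (0.0971). POFUT1, which adds fucose to the receptors, was at 136 and 128 CPM in the controls, 151, 153 and 154 CPM with sgEZH2-1, and 132, 129 and 138 CPM with sgEZH2-2. POFUT1 rose with sgEZH2-1 (log2 fold change 0.21, adjusted p = 0.0215), and sgEZH2-2 overlapped the controls. POFUT1 was not called without library 2 of Control (adjusted p = 0.108) or library 2 of sgEZH2-1 (0.0565). LFNG, a glycosyltransferase that alters which ligands a receptor responds to, was named after its values were seen. It rose with sgEZH2-2 (log2 fold change 0.57, adjusted p = 0.0464), a call lost without library 2 of Control (0.246), library 2 or 3 of sgEZH2-1 (0.0598 and 0.0563) and library 2 or 3 of sgEZH2-2 (0.116 and 0.143), and in a fit of the 2 groups alone (0.0563).

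Of the 9 genes that cleave the receptor, PSENEN fell with sgEZH2-1 and APH1B rose with sgEZH2-2. Both encode subunits of gamma-secretase, the protease that frees the intracellular domain. PSENEN was at 39.9 ± 1.69 CPM in Control and 33.3 ± 0.449 CPM with sgEZH2-1 (SD, n = 2 and 3; log2 fold change -0.26, adjusted p = 0.0201). This was not called without library 1 of Control (0.137) or library 2 or 3 of sgEZH2-1 (0.0653 and 0.055), in DESeq2 (0.065) or in a fit of the 2 groups alone (0.0638). APH1B was at 2.13 ± 0.304 CPM in Control and 3.84 ± 0.680 CPM with sgEZH2-2 (SD, n = 2 and 3; log2 fold change 0.85, adjusted p = 0.0426). That call was kept only without library 1 of sgEZH2-1, and was lost without any of the other 7 libraries, controls included, at an adjusted p of 0.0504 to 0.216. It was also lost in DESeq2 (0.141) and in a fit of the 2 groups alone (0.0623).

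None of the 9 genes of the nuclear complex and its corepressors was called against Control in the edgeR test with either guide or with both, and 1 of the 9 had an unadjusted p under 0.05 with sgEZH2-2. RBPJ, the DNA-binding protein of the complex, was at 56.6 ± 8.46 CPM in Control, 53.6 ± 1.19 with sgEZH2-1 and 55.7 ± 4.81 with sgEZH2-2 (SD, n = 2, 3 and 3). Its log2 fold changes of -0.08 (95% interval -0.30 to 0.14) and -0.02 (-0.24 to 0.20) were within the spread between libraries. The coactivator MAML3, named after its values were seen, was higher with sgEZH2-2 than with sgEZH2-1 (log2 difference 0.86, adjusted p = 0.0226). That call was lost without library 2 or 3 of sgEZH2-1 (0.0636 and 0.0651), without library 1 or 2 of sgEZH2-2 (0.0556 and 0.0867) and in DESeq2 (0.0744).

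Of 10 genes grouped as regulators of the receptor (NUMB proteins, ubiquitin ligases and endocytic kinases), 9 were tested. BMP2K, an endocytic kinase, rose with sgEZH2-1 from 13.8 ± 3.16 to 21.7 ± 0.522 CPM (SD, n = 2 and 3; log2 fold change 0.64, adjusted p = 0.00612). DTX4, a Deltex ubiquitin ligase, fell with sgEZH2-1 from 96.7 ± 1.70 to 79.2 ± 2.97 CPM (SD, n = 2 and 3; log2 fold change -0.29, adjusted p = 0.012). The DTX4 call was lost without library 1 of Control (adjusted p = 0.0762). With sgEZH2-2 no gene of this group was called by edgeR, and 1 had an unadjusted p under 0.05.

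Among the other HES and HEY genes, 4 of 9 were tested and HEY2 alone was called. HEY2 had 0 counts in both controls, 4, 12 and 14 counts with sgEZH2-1 and 10, 6 and 6 counts with sgEZH2-2. The fold was taken against a floor of 3 counts for the 2 controls combined (0.102 CPM). The level of HEY2 was 7.03 times this floor with sgEZH2-1 and 5.35 times with sgEZH2-2. The floor allows for counting error in the controls only, and not for that of the guide counts. In the edgeR test HEY2 was called higher with sgEZH2-1 (adjusted p = 0.00636) and with sgEZH2-2 (adjusted p = 0.023). With 0 counts in the controls, HEY2 was abundant enough to test only through the guide libraries. A call against Control could thus only be a rise, and its direction lends no support. With sgEZH2-2 the HEY2 call was lost without either control (adjusted p = 0.098 and 0.0985) and without library 1 or 3 of sgEZH2-2 (0.0551 and 0.0504). With both guides as 1 group it was lost without either control (0.144 and 0.141). HES2, HES4 and HES6 were not called, and HES3, HES5, HES7, HEYL and HELT had too few counts to test.

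**Figure D4:**
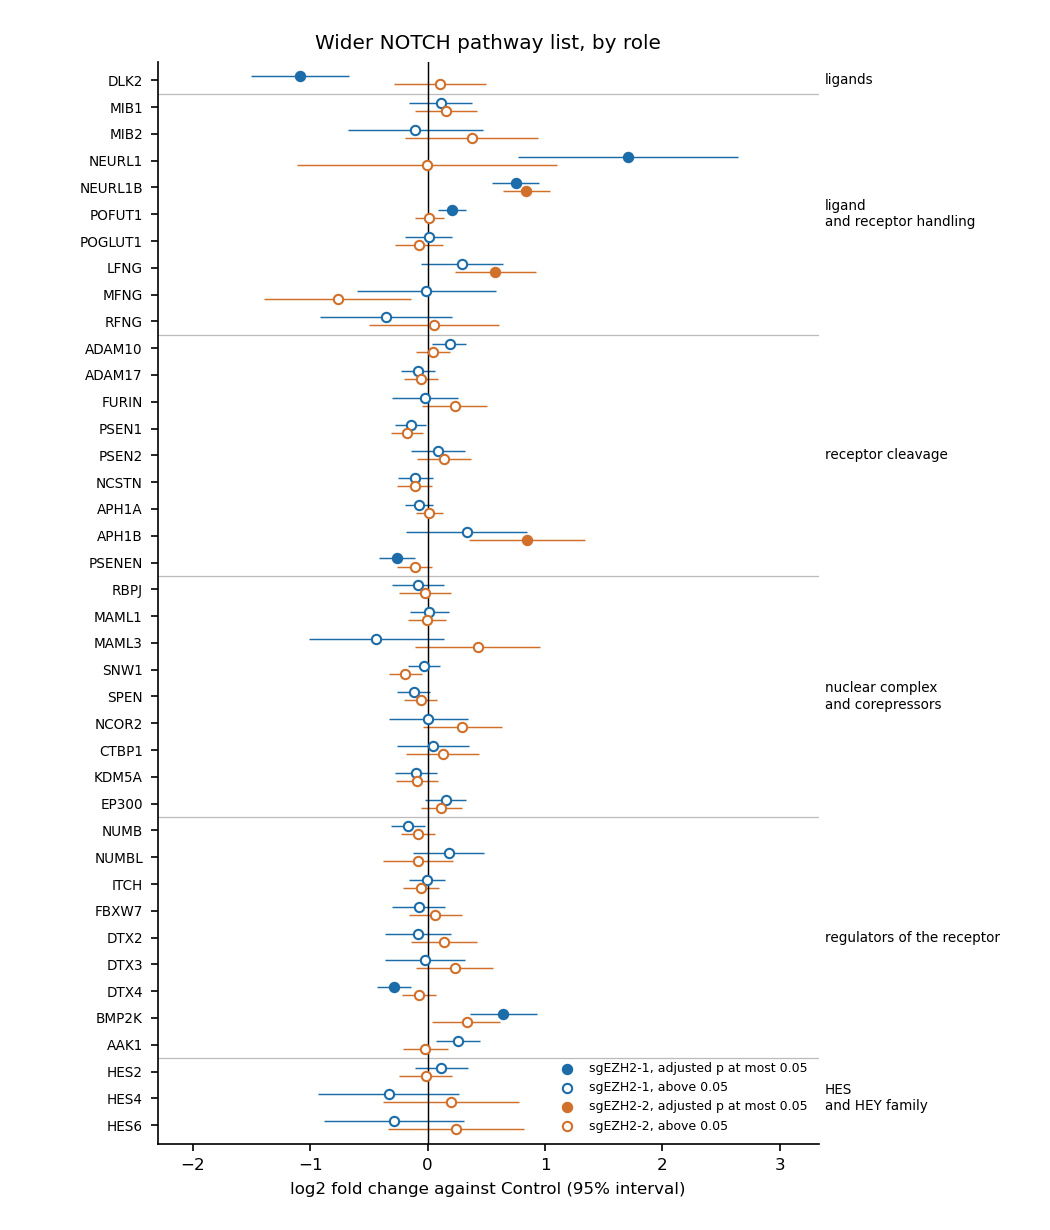
Log2 fold change against Control with its 95% interval for 40 genes of the wider NOTCH list, ordered by role, for sgEZH2-1 and sgEZH2-2; filled points have an adjusted p of at most 0.05. HEY2, with 0 control counts, is not plotted; NEURL1B is filled for both guides (0.75 and 0.84) and DLK2 for sgEZH2-1 (-1.09).

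Markers of other cell types moved with the groups in places. Summed endothelial markers ranged from 177 to 184 CPM in Control, 76.6 to 81.7 CPM with sgEZH2-1 and 143 to 160 CPM with sgEZH2-2. These sums came mostly from CDH5, whose mean over the libraries was 129 CPM; 3 of 7 markers were tested, and KDR and TIE1 had 0 counts throughout. Summed fibroblast markers ranged from 6.13 to 7.24 CPM in Control, 5.02 to 8.89 with sgEZH2-1 and 11.0 to 14.0 with sgEZH2-2, mostly from COL1A1, with COL1A2 at 0 and 1 of 8 markers tested. Summed keratinocyte markers ranged from 3580 to 3780 CPM in Control, 3090 to 3670 with sgEZH2-1 and 3150 to 3280 with sgEZH2-2. Of these 13 markers, 5 were called higher and 2 lower with sgEZH2-1, and 0 higher and 4 lower with sgEZH2-2. Summed melanocyte markers (3 of 5 tested) ranged from 28.9 to 30.8 CPM in Control, 30.5 to 33.1 with sgEZH2-1 and 27.8 to 29.8 with sgEZH2-2. Summed leukocyte markers (2 of 7 tested) ranged from 12.9 to 13.0, 12.6 to 16.1 and 10.5 to 12.2 CPM in the same order. The part of these shifts in the values of the JAG, HES and HEY genes was not tested.

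The genes whose levels ran most like those of a member were taken by Pearson correlation of log2 CPM over the 8 libraries, among 12304 genes with a mean of at least 1 CPM. For JAG1 the closest were MCM4 (r = 0.991) and PEX26 (0.990). For NOTCH3 they were C1QL1 (0.982), EPHB2 (0.981) and TOR4A (0.974), and for NRARP they were LPIN3 (0.992), POLR1D (0.983) and CALML3 (0.980). For MAML2 they were PRKD3 (0.980), TMEM182 (0.966) and SLC44A1 (0.966). The 8 points share 3 group means and the same library depths, and the values describe likeness over these libraries only.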

How the data were processed

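RNA of 8 libraries was sequenced, and the authors deposited whole-number read counts per gene with no normalization. FastQC, STAR, DESeq and genome build hg38 are named, per the submitters' processing notes, with their versions, the counter, the annotation and the treatment of strand not given in the sources used here. Per the series' design text, the authors left out 1 of 3 controls that clustered apart; that library was not analysed, and the control spread may be understated. The columns name groups and no replicate numbers, so libraries are numbered by their order within a group.

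Totals were 12.6 M to 15.5 M counts. Counts were scaled by trimmed mean of M values and filtered with filterByExpr (minimum count 10), leaving 13124 of 20294 genes, and tested two-sided in edgeR 4.0.16 (R 4.3.3) by quasi-likelihood, with Benjamini-Hochberg adjustment and a threshold of 0.05. Guides were contrasted in a fit of 3 groups, and joined as 1 group in a fit of 2 levels. Standard errors were derived from the F statistic. Alternatives were DESeq2 1.42.0, other scalings, no filter, other fits, each library left out, a fold of at least 1.5 as well, and removal of a GC trend, added after the data had been seen (lowess over the GC content of the longest transcript, span 0.3, per library). The code was tested on simulated data. Gene positions are from GENCODE for GRCh38, and symbols matched for 19873 genes by name, 307 by identifier and 114 not at all. Exon lengths count the union of exons.

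The members, the wider list and the tests were chosen with earlier results of these data known. All members were named; of each role of the wider list, up to 3 genes called with either guide and with the smallest adjusted p. Likeness was taken for the member of each role with the smallest adjusted p, on log2(CPM + 0.1). Some items are not reported here. Folds against 0 counts use a floor of 3 counts over the controls.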

Additional observations from a re-analysis of the deposited data

Results flagged for a closer look

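For 5 members the effect of sgEZH2-2 differed from that of sgEZH2-1 in the test of the difference itself, by edgeR with adjustment over all 13124 genes. The log2 difference between the guides was 1.33 for HEY1, 0.85 for JAG2, 0.38 for HES1, 0.28 for NRARP and 0.21 for JAG1. In each of these 5 genes all 3 sgEZH2-2 libraries were above all 3 sgEZH2-1 libraries. The 5 genes were picked by a test on these same libraries, so that order adds no support to it. The share of all genes in such an order was not counted, while 11.5% of all genes were called higher and 10.4% lower. The EZH2 transcript also differed between the guides, with a log2 difference of 0.36 (adjusted p = 0.00844), and the GC-rich genes by a median of 0.22. Their part in the 5 differences was not tested beyond the removal of the GC trend, under which JAG1, JAG2, HES1 and HEY1 stayed called and NRARP did not.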

How the results depend on the processing

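No paired analysis was possible because the columns carry no replicate numbers, so the planned fit with a replicate block was not run. With sgEZH2-1, 4 members and 2726 genes were called; leaving out 1 library gave 2 to 5 members and 1394 to 2583 genes, and asking for a fold of at least 1.5 as well gave 2 members and 1063 genes. With sgEZH2-2, 3 members and 1139 genes were called; leaving out 1 library gave 0 to 4 members and 516 to 1369 genes, the fold of 1.5 gave 0 members and 618 genes, and removing the GC trend gave 1971 genes. Scaling by library totals alone turned the split of 811 higher and 328 lower into 899 and 197. With both guides as 1 group, 0 members and 572 genes were called; the mean of the guides in the fit of 3 groups gave 2 members and 1612 genes (1010 higher and 602 lower, against 494 and 78), DESeq2 gave 1 member, removing the GC trend gave 1 member (NOTCH3, log2 fold change 0.37), and leaving out 1 library gave 0 to 1 members and 142 to 505 genes. Between the guides, 5 members and 2874 genes were called; leaving out 1 library gave 2 to 6 members and 1503 to 2998 genes, and the fold of 1.5 gave 2 members and 768 genes. The lowest counts of genes came without library 1 of Control for each guide, library 2 of Control for both guides as 1 group, and library 2 of sgEZH2-2 between the guides. Removing the GC trend gave 6 members and 3831 genes with sgEZH2-1, and 5 members and 4050 genes between the guides. It gave 808 genes with both guides as 1 group. DESeq2 called 6 members between the guides, NOTCH3 included. The difference of NRARP between the guides reversed to -0.036 on the log2 scale when the GC trend was removed. Except for that last shift, which the removal of the trend itself produced, the cause of these changes was not tested. Among the members called, JAG1 and JAG2 with sgEZH2-1, NOTCH3 and JAG1 with sgEZH2-2, and JAG1, JAG2, HES1 and HEY1 between the guides stayed called under DESeq2, both other scalings, no filter, the fit of 2 groups and the GC removal. With 2 controls and 33 to 118 counts per library, HEY1 was measured least precisely.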
